A study of Mus musculus with 4 samples.

Results

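Foxp3, Helios (Ikzf2), Eos (Ikzf4), the CD103 chain (Itgae), neuropilin-1 (Nrp1), Gpr83, Lrrc32 and Capg are genes known for their use as markers or regulators of regulatory T cells, and their levels are described here in mouse helper T cells with and without STAT4 or STAT6. All probe sets that the array's annotation pairs with 1 of these 8 symbols alone were taken. These were 17 of the 45101 probe sets, for 7 of the 8 genes, and no probe set was paired with Lrrc32 alone. The study asked how STAT4 and STAT6, which carry the signals of interleukin-12 and interleukin-4, shape helper T cell expression. There was 1 array for each of 4 groups, so no difference below has a replicate, a spread between samples or a test.

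Naive CD4+ T cells, sorted as CD44- and CD62L+, came from mouse spleen and lymph nodes. The gate as described names neither CD25 nor Foxp3, and the ages of the mice are not given in the labels. All cultures were activated through CD3 and CD28 for 3 days, kept in interleukin-2 with the polarizing cytokine for 4 more days, and restimulated for 2 h on day 7. Th1 cultures received interleukin-12 with an antibody to interleukin-4, from C57BL/6J wild type cells and from C57BL6-STAT4<tm1> (STAT4KO) cells, called STAT4-deficient here. Th2 cultures received interleukin-4 with an antibody to interferon gamma, from C57BL/6J wild type cells and from B6.129S2©-STAT6<tm1Gru>/J (STAT6KO) cells, called STAT6-deficient here. Both mutants carry a germline allele, so the cells lacked the factor before the culture as well as during it. The sample titles tie each wild type to its own STAT, and whether both came from the same mice is not given, so source and culture condition cannot be told apart between them. No transforming growth factor beta (TGF-beta) was listed among the additions to the cultures.

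Foxp3 is the transcription factor that defines regulatory T cells, and activated mouse helper cells can turn it on when TGF-beta and interleukin-2 signals meet the T cell receptor signal. Helios and Eos are zinc finger factors of the Ikaros family, and Eos is known as a partner of Foxp3 in gene repression. CD103 pairs with the beta 7 integrin chain and binds E-cadherin, and its gene responds to TGF-beta. Neuropilin-1 is a receptor for semaphorins and vascular endothelial growth factor, and it marks thymus-derived regulatory T cells in mice. Gpr83 is a G protein-coupled receptor, Lrrc32 encodes the surface protein that holds latent TGF-beta, and Capg caps the ends of actin filaments.

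The deposited values are log2 expression values made by RMA, and 5.82, the pooled median over 45037 probe sets with the controls left out, served as the level minimum. A difference was called where it reached 2-fold and the brighter array stood at or above that minimum. The 27 control probe sets for bacterial transcripts, where it is not given whether those RNAs were added, had medians from 3.41 to 3.71 on the 4 arrays and highest values from 5.69 to 6.52. The STAT4-deficient array had less Stat4 signal (9.20 against 11.45 in Th1 wild type), while Stat6 did not separate the Th2 arrays (10.92 and 10.93 on its brighter probe set), and the place of these probes in the deleted parts is not known here. For the actin control, the 3′ minus 5′ difference, a sign of RNA quality, was 2.08 log2 units in STAT6-deficient cells and 0.32 to 0.85 on the other arrays. Of 8 listed T cell markers 7 were measured and stood between 9.68 and 13.73 on all arrays, with 1 lower in STAT4 loss, none called in STAT6 loss, 3 higher in Th1 than in Th2 wild type cells and 1 called each way between the knockouts. As a technical guide, the SD between the differences that probe sets of 1 gene gave was 0.48 log2 units for STAT4 loss, 0.65 for STAT6 loss, 0.71 between wild types and 0.85 between the knockouts.

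The members peaked on different arrays. On their brightest probe sets, Foxp3 and Itgae were highest in STAT4-deficient Th1 cells, Ikzf2 and Nrp1 in STAT6-deficient Th2 cells, and Ikzf4, Gpr83 and Capg in Th2 wild type cells. None was highest in Th1 wild type cells, where 5 of the 7 were lowest. Among the 13147 genes at the minimum on at least 1 array, 15.4% were highest and 31.1% lowest in Th1 wild type cells, and 41.8% were highest in Th2 wild type cells. Of the 21 gaps between neighbouring arrays on the 7 probe sets, 4 exceeded 0.85, the largest of the technical guides. They were the gap below the top array for Foxp3 (1.54), Ikzf2 (1.49), Gpr83 (1.29) and Ikzf4 (1.15).

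In STAT4 loss 2 of the 7 genes were called, Foxp3 and Itgae, both higher, beside 11.5% of all genes called, 6.18% higher and 5.34% lower. In STAT6 loss 3 of the 6 at the level minimum were called, Ikzf2 higher and Ikzf4 and Gpr83 lower, beside 26.5% of all genes called, 7.01% higher and 19.5% lower. Between the wild types 5 of 6 were called, all higher in Th2 cells, beside 33.5% of all genes called, 25.4% higher in Th2 and 8.14% higher in Th1 cells. The exception was Ikzf2, at 0.27. Between the knockouts 3 of 7 were called, Foxp3 and Itgae higher and Ikzf2 lower in STAT4-deficient cells, beside 22.9% of all genes called, 12.6% higher and 10.3% lower. The wild type comparison shares an array with each STAT comparison, as does that of the knockouts, so these counts are not independent of each other.

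Counted by probe set, STAT4 loss gave 3 calls among 13 at the minimum, all higher (12.7% of all probe sets called, 7.19% higher and 5.47% lower). STAT6 loss gave 2 higher and 4 lower of 13 (28.1% called, 8.95% higher and 19.1% lower). Between wild types 9 of 12 were called, all higher in Th2 cells (33.8% called, 24.5% in that direction and 9.28% in the other), and between the knockouts 3 were higher and 4 lower of 14 (29.3% called, 15.8% higher and 13.5% lower). Probe sets of 1 gene measure the same RNA and are not separate evidence. Of all 17, 14 reached the minimum on at least 1 array and 9 on all arrays. STAT4-deficient Th1 cells were above Th1 wild type cells on 16 of the 17, with a median of 0.50 log2 units, where 63.6% of all probe sets were above 0 and their median was 0.18. After median centring 15 of 17 were above 0, with a median of 0.26 against −0.06 for all probe sets. Counted by gene, 6 of 7 were above 0 as deposited, where 62% of all genes were. After median centring 5 of 7 genes were, where 44.4% of all genes were. Th2 wild type cells were above Th1 wild type cells on 13 of 17, where 52.1% of all probe sets were below 0 (Th1 minus Th2). The median difference was −1.28 against −0.03 for all probe sets. Among probe sets at the minimum these medians were −1.36 and −0.32. After quantile normalization the count was again 13 of 17, with medians of −0.75 for the members and 0.04 for all.

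**Figure D1:**
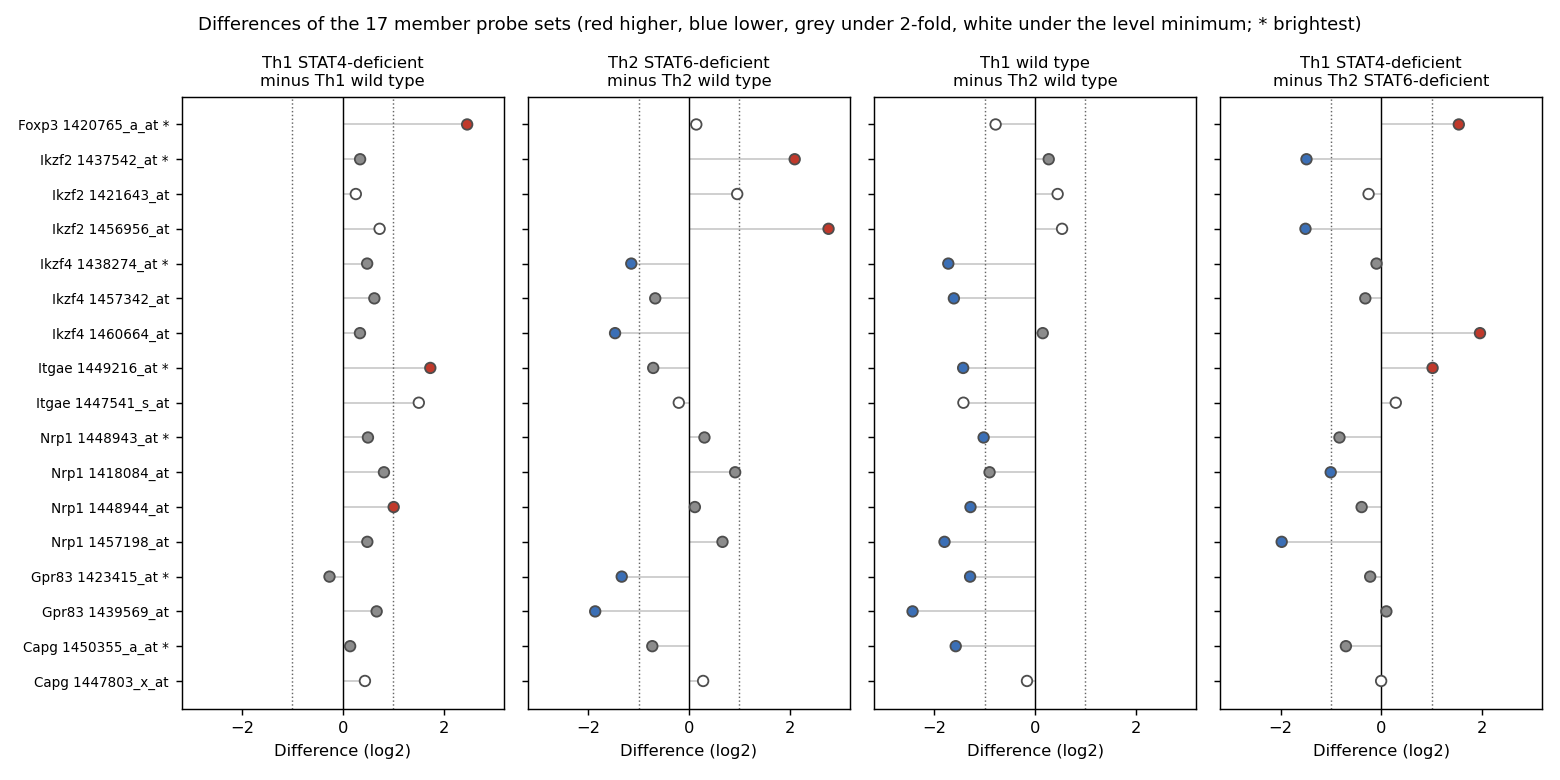
Differences (log2) of the 17 member probe sets in 4 comparisons, with red points called higher, blue called lower, grey under 2-fold and white below the level minimum on both arrays, and dotted lines at 2-fold. In STAT4 loss 16 of 17 points, from 7 genes, lie right of 0, as do 63.6% of all probe sets, with Foxp3 at 2.47. In STAT6 loss Ikzf2 lies right while Ikzf4 and Gpr83 lie left.

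Foxp3 had its highest signal in Th1 cells without STAT4. Its single probe set read 4.34 in wild type and 6.81 in STAT4-deficient Th1 cells, and 5.13 in wild type and 5.27 in STAT6-deficient Th2 cells. The STAT4-deficient array was the only one of the 4 on which Foxp3 reached the level minimum, where it also stood above the highest bacterial control (6.42). The other 3 values lie within the range of those controls. The STAT4-deficient value also lay below the 75th percentile of its array (7.63). The measured fold of 5.54 between the Th1 arrays therefore sets a dim signal against a reading not distinguished from background. The size of that fold is not secure. The difference of 2.47 log2 units ranged from 2.23 to 2.85 under 4 other scalings of the arrays. Between the Th2 arrays Foxp3 differed by 0.15, with both below the minimum, as were both wild types (−0.78, Th1 minus Th2). Against STAT6-deficient cells, where Foxp3 was also below the minimum, STAT4-deficient cells read 2.91-fold higher. In a bulk sample, more cells with Foxp3 and more Foxp3 RNA per cell cannot be told apart.

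The Foxp3 gene on the X chromosome has a pair of start sites in the RefSeq promoter table, and a single probe set cannot say which was used. The windows around both, and that of Gpr83, are shown because Foxp3 was called in STAT4 loss and Gpr83 in STAT6 loss. Each runs 5′ to 3′ from 250 bases before the start to 50 after it, in build GRCm38.p6 on the plus strand. Capitals mark matches to TTCNNNGAA, the core letters that STAT factors bind, and to TATAAAA, the core promoter motif. The STAT letters with 4 bases between TTC and GAA, a spacing that STAT6 prefers, were searched too, both strands were read, and no matches overlapped.
Foxp3 first start, chrX:7579426-7579725: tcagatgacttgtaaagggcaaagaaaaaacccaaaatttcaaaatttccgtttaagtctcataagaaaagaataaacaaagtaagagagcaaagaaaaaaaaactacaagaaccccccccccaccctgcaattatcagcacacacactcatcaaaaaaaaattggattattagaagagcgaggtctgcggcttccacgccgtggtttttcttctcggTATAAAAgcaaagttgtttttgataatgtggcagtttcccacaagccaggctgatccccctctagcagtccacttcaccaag
Foxp3 second start, chrX:7580233-7580532: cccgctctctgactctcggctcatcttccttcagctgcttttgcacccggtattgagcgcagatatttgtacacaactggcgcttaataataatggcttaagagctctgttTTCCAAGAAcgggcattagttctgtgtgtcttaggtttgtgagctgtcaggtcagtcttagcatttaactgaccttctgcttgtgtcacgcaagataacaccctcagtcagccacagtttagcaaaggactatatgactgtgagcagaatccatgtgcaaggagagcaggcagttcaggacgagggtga
Gpr83, chr9:14859960-14860259: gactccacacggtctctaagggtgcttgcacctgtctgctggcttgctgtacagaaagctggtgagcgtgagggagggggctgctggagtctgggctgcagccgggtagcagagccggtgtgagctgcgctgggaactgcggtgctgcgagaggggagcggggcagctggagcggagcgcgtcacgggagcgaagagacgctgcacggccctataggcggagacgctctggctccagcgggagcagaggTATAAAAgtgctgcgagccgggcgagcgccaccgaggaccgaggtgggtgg
The first Foxp3 window holds TATAAAA beginning 32 bases before the start and no STAT letters. The second holds TTCCAAGAA, a match to TTCNNNGAA, beginning 139 bases before the start. The Gpr83 window holds TATAAAA beginning 1 base before the annotated start and no STAT letters. Of 32851 windows in the table, 8.3% hold TTCNNNGAA, 6.95% hold the wider STAT spacing and 5.48% hold TATAAAA. The Nrp1 and Capg windows held none of the 3 motifs. The CG dinucleotide occurred 6 and 8 times in the Foxp3 windows and 24 times in that of Gpr83, against a median of 7 over the table. Ikzf2, Ikzf4 and Itgae were not matched in the table.

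**Figure D2:**
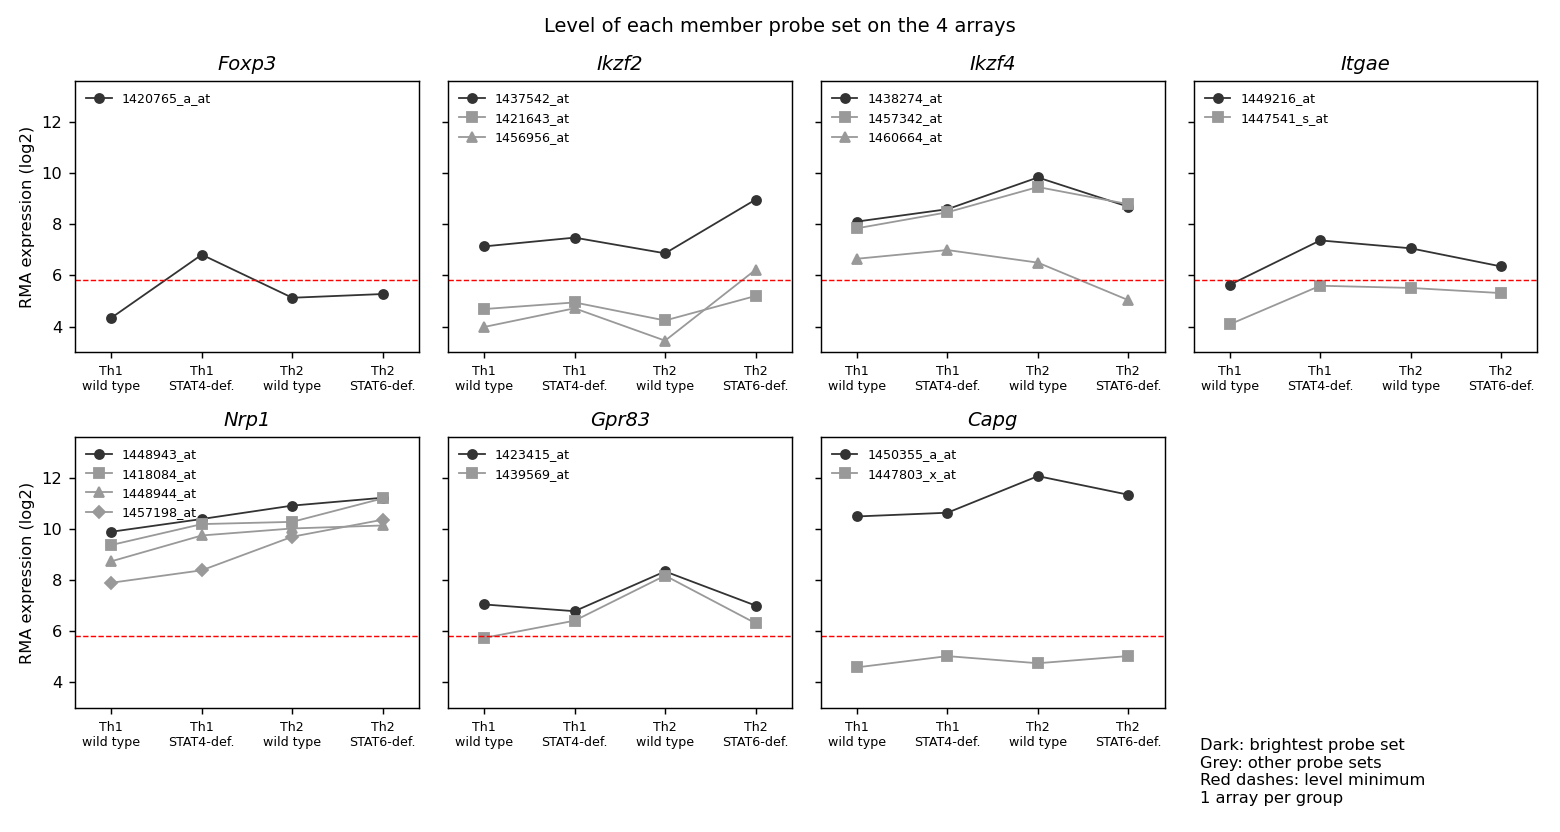
Log2 RMA expression of each of the 17 member probe sets on the 4 arrays, with 1 panel per gene, lines joining the values of 1 probe set and a red dashed line at the level minimum of 5.82. Foxp3 crosses the line only in Th1 STAT4-deficient cells, at 6.81, while Helios (Ikzf2) peaks in Th2 STAT6-deficient cells at 8.96 and Gpr83 in Th2 wild type cells at 8.34.

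Helios followed another order. Its brightest probe set read 7.14 in wild type and 7.48 in STAT4-deficient Th1 cells, and 6.87 in wild type and 8.96 in STAT6-deficient Th2 cells. Th2 cells without STAT6 were thus the high ones, 4.29-fold above their wild type, and the remaining 3 arrays lay between 6.87 and 7.48. Of the other Ikzf2 probe sets, 1 read 3.99, 4.72, 3.45 and 6.22 on the arrays in the order just given. It reached the minimum without STAT6 alone and lay within the range of the bacterial controls elsewhere, so no fold is given for it. The remaining one read 4.69, 4.95, 4.24 and 5.20. All 3 probe sets placed the arrays in 1 order, from Th2 wild type cells through both Th1 arrays, wild type first, up to those without STAT6. The last of them never reached the level minimum. Of the 11490 genes at the minimum in the STAT6 comparison, 193 had a larger difference than the 2.10 of Ikzf2, which ran from 1.98 to 2.29 under the other scalings. In STAT4 loss Ikzf2 differed by 0.34, under the 2-fold limit. The high Helios value belongs to the array with the actin 3′ minus 5′ difference of 2.08, whose part in this and the other STAT6 results was not tested. Foxp3 and Helios were therefore each called in the loss of a different STAT, though Foxp3, below the minimum on both Th2 arrays, could not be called in STAT6 loss. Between the knockout arrays they were called in opposite directions, at 1.54 for Foxp3 and −1.49 for Helios (STAT4-deficient minus STAT6-deficient). That contrast uses the same high readings of Foxp3 (6.81) and Helios (8.96) as the STAT calls, so it is not a further result.

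Eos was highest in Th2 wild type cells on its brighter probe sets. The brightest read 8.11 in wild type and 8.59 in STAT4-deficient Th1 cells, and 9.83 in wild type and 8.69 in STAT6-deficient Th2 cells, which is 3.30-fold more in Th2 than in Th1 wild type cells and 2.21-fold less without STAT6. The next gave 7.84, 8.47, 9.46 and 8.79 in the same array order, with a STAT6 difference of −0.67 that was not called. The third disagreed on the wild types. It read 6.65, 6.99, 6.50 and 5.03, so that its wild types differed by 0.15 and its STAT6-deficient array was the lowest, at −1.47 from Th2 wild type and 3.89-fold below STAT4-deficient cells. All 3 Eos probe sets were lower without STAT6, by 0.67 to 1.47 log2 units, and the call on the brightest was lost after quantile normalization (−0.86) and loess (−0.84). None was called in STAT4 loss, where they differed by 0.34 to 0.63.

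Itgae, which encodes the CD103 chain, was lowest in Th1 wild type cells. Its brighter probe set read 5.63 there and 7.37 without STAT4, and 7.06 in wild type and 6.35 in STAT6-deficient Th2 cells. The Th1 wild type array was the only one below the level minimum. STAT4-deficient Th1 cells read 3.34-fold above it and Th2 wild type cells 2.69-fold above it, both against a value that also lies within the range of the bacterial controls. The dimmer probe set gave the same order (4.09, 5.60, 5.51 and 5.31) without reaching the minimum on any array. STAT6 loss gave −0.71 on the brighter probe set, which is under the limit. The Itgae call in STAT4 loss held under all 4 other scalings (1.50 to 2.12). Between the knockouts Itgae was 2.03-fold higher without STAT4, and that call was lost after median centring (0.64) and loess (0.91).

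Nrp1 had its lowest signal in Th1 wild type cells and its highest in Th2 cells without STAT6. The brightest read 9.89 in wild type and 10.39 in STAT4-deficient Th1 cells, and 10.91 in wild type and 11.22 in STAT6-deficient Th2 cells. The others read 9.37, 10.19, 10.28 and 11.20, then 8.74, 9.75, 10.02 and 10.14, then 7.90, 8.39, 9.70 and 10.36. All 4 probe sets gave this same order, with both Th1 arrays below both Th2 arrays. Neighbouring arrays in that order lay 0.31 to 0.52 log2 units apart on the brightest probe set, which does not separate them clearly beside technical guides of 0.48 to 0.85. Th2 wild type cells exceeded Th1 wild type cells by 2.03-fold on it and by 1.87-fold to 3.48-fold on the others. In STAT4 loss the 4 differences ran from 0.49 to 1.01 and in STAT6 loss from 0.12 to 0.92, and 1 probe set was called in STAT4 loss and none in STAT6 loss. After quantile normalization the wild type difference of the brightest shrank from −1.02 to −0.62, with no call.

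Gpr83 and Capg were highest in Th2 wild type cells on their brightest probe sets, as Eos was on its brighter ones. So were 41.8% of all genes at the minimum on at least 1 array. Gpr83 read 7.05 in wild type and 6.79 in STAT4-deficient Th1 cells, and 8.34 in wild type and 7.01 in STAT6-deficient Th2 cells. Its other probe set read 5.74, 6.42, 8.18 and 6.32 in that order. The Th2 wild type array stood above 3 arrays that lay closer together, and in STAT4 loss the probe sets differed by −0.26 and 0.67. Without STAT6 the signal was 2.52-fold lower on the first probe set and 3.63-fold lower on the second, and Th1 wild type cells were 2.45-fold and 5.40-fold below Th2 wild type cells. Under quantile normalization or loess the first probe set lost its calls in both comparisons (−0.96 and −0.98 for STAT6 loss, −0.74 and −0.75 between wild types), and the second kept them.

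Capg read 10.49 in wild type and 10.64 in STAT4-deficient Th1 cells, and 12.07 in wild type and 11.34 in STAT6-deficient Th2 cells. The Th1 arrays were low and nearly equal, and Th2 wild type cells were 2.98-fold above Th1 wild type cells. STAT6 loss gave −0.73, which is under the limit. The other Capg probe set stayed between 4.59 and 5.03, below the minimum on all arrays, and averaging the pair reduced the wild type difference to −0.87, with no call.

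**Figure D3:**
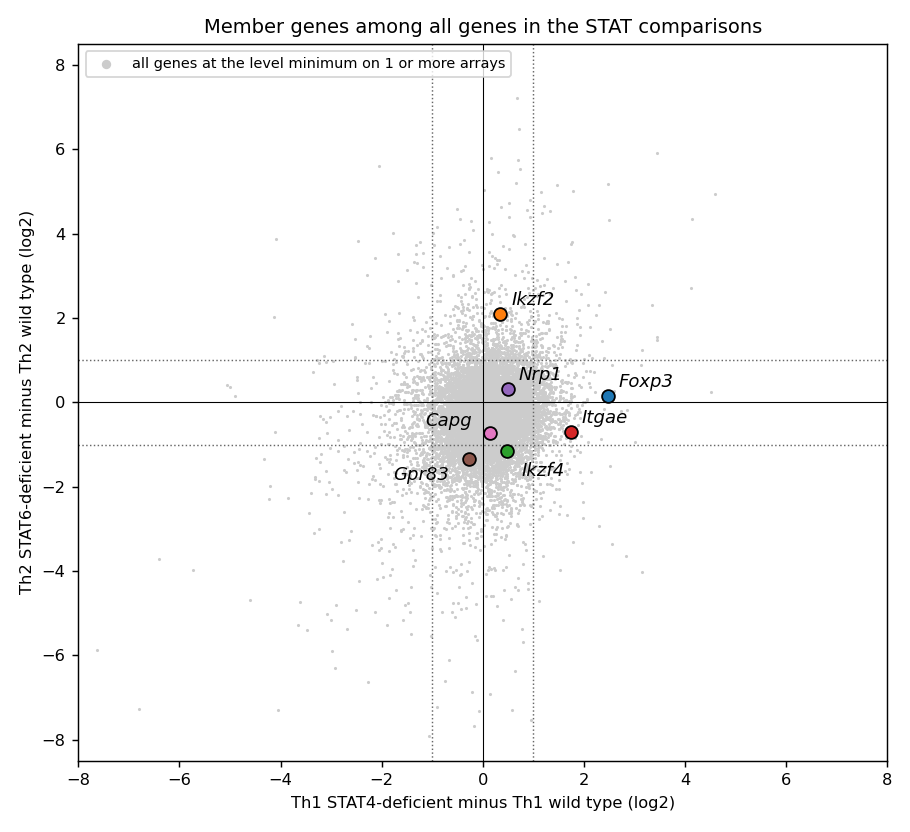
Difference in STAT4 loss (horizontal, log2) against that in STAT6 loss (vertical, log2) for the brightest probe set of each gene, with all genes that reached the level minimum on 1 or more arrays in grey, the 7 members in colour and dotted lines at 2-fold. Foxp3 (2.47 and 0.15) and Itgae (1.74 and −0.71) lie to the right, Ikzf2 (0.34 and 2.10) lies at the top, and Gpr83 (−0.26 and −1.34) and Ikzf4 (0.48 and −1.15) lie low.

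Among other genes linked to regulatory T cells, most of those called in STAT4 loss were lower, whereas Foxp3 was higher. Of 20 listed surface and effector genes 18 were measured. Of these 6 were called lower and 1 higher, beside 5.34% and 6.18% of all genes. Their median was −0.45 log2 units against 0.13 for all genes at the minimum. Tigit and Il1rl1 had no probe set of their own. The lower ones included Il10 (−6.80), whose cytokine restrains inflammation, the inhibitory receptor gene Ctla4 (12.34 in Th1 wild type and 9.68 in STAT4-deficient cells), the costimulatory receptor gene Icos (−1.59) and the transcription factor gene Plagl1 (−1.36, with another probe set at 0.28). Il10 read 5.94 in STAT4-deficient cells, within the range of the bacterial controls, so the size of its difference is not secure. Cd83, a surface protein of activated cells, was the higher one, at 12.19 against 9.68. Il2ra, the interleukin-2 receptor chain CD25, differed by −0.26 and the TNF receptor family genes Tnfrsf18 and Tnfrsf4 by −0.31 and −0.36. Centred on the hybridization controls, 3 of these genes were called in each direction and the median was −0.07.

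In STAT6 loss 8 of the same 18 were lower and 3 higher, beside 19.5% and 7.01% of all genes. Their median was −0.97 against −0.30 for all genes. Il10 (−7.26), Ctla4 (−3.27), the ectonucleotidase gene Entpd1 (CD39, −2.31) and Fgl2 (−1.68) were the furthest below. Nt5e, which encodes the partner ectonucleotidase CD73, was 2.17 higher on its main probe set and as low as −0.71 on another, and Cd83 was 1.73 higher. The main Nt5e probe set read 5.38 in Th2 wild type cells, within the range of the bacterial controls, so the size of its difference is not secure. Ctla4, Icos, Entpd1 and Il10 were lower in both losses. None of the member genes was called in both, and Foxp3, below the minimum on both Th2 arrays, could not be called in STAT6 loss. So few members were called that this absence does not set them apart. The share of all genes called in both losses is not given here. Between wild types 8 of the 18 were higher in Th2 cells and Nt5e in Th1 cells, beside 25.4% and 8.14% of all genes. The median was −0.59 against −0.37 for all genes, and 4 were higher in Th2 cells after quantile normalization. Between the knockouts 3 were lower in STAT4-deficient cells and 1 was higher, beside 10.3% and 12.6% of all genes. The median was −0.33 against 0.02 for all genes. Ebi3 (−2.45), the shared chain of interleukin-27 and interleukin-35, was the furthest below.

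**Figure D4:**
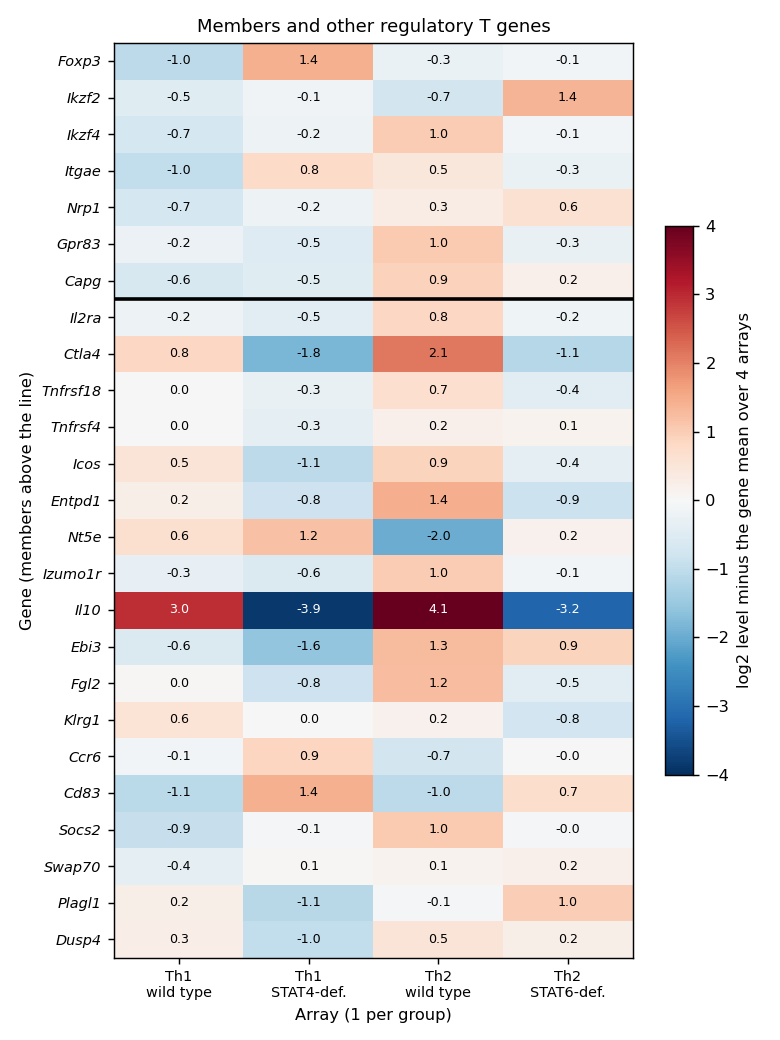
Level of each gene on the 4 arrays minus its own mean (log2), for the 7 members above the black line and 18 other regulatory T genes below it, red above and blue below the mean. Il10 and Ctla4 are high in both wild type arrays and low in both deficient ones, while Foxp3 and Itgae are high in Th1 STAT4-deficient and Ikzf2 in Th2 STAT6-deficient cells.

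Among 24 factors that act on Foxp3 or its gene, 1 was higher and 4 were lower in STAT4 loss, beside 11.5% of all genes called. Their median was −0.13 against 0.13 for all genes at the minimum. Gata3, a Th2 factor that regulatory T cells also use, was the higher one at 11.84 against 9.31. The NF-kappaB subunit gene Rel (−1.59) and Uhrf1 (−1.25, with another probe set at −0.32), which maintains DNA methylation, were lower. So were Runx3 (−1.15, with another probe set at 0.11) and Satb1 (−1.07, with another at −0.10). The interleukin-2 signal genes Stat5a and Stat5b differed by 0.04 and 0.91, with another probe set of each at 0.36 and −0.04. Smad3, which carries TGF-beta signals, differed by 0.19, with another probe set at −0.12. This balance depended on the scaling. After quantile normalization or loess 1 was higher and 2 were lower, and hybridization control scaling gave 4 higher and 1 lower. Runx3 (−0.96 under quantile and −0.76 under hybridization control scaling) and Satb1 (−0.64 and −0.68) lost their calls under these 3 scalings. Uhrf1 lost its call under hybridization control scaling alone (−0.86). The median of the list was 0.09 after quantile normalization. In STAT6 loss 4 of the 24 were higher and 7 lower, beside 26.5% of all genes called. Their median was −0.29, close to the −0.30 of all genes at the minimum. The split was 6 each way after quantile normalization and 7 each way after median centring. Bach2 (1.45, with another probe set at −0.02), Nfatc1 (1.35) and Foxo3 (1.32) were higher, and Nfatc2 (−2.08, with another at 0.16), Satb1 (−2.03) and Uhrf1 (−1.98) lower. Between wild types 3 were higher and 4 lower in Th1 cells, beside 33.5% of all genes called. Between the knockouts 1 was higher and 4 lower in STAT4-deficient cells, beside 22.9% of all genes, with 2 each way after quantile normalization.

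Of the TGF-beta pathway, 1 gene was called in STAT4 loss. All 16 listed genes were measured, 12 were at the minimum and 1, the convertase gene Furin, was lower (−1.11), beside the 11.5% of all genes called. Furin lost its call after quantile normalization (−0.72), loess (−0.80) and centring on the hybridization controls (−0.72), and no TGF-beta gene was then called lower. Tgfb1 differed by 0.19, and the receptor genes Tgfbr1 and Tgfbr2 differed by 0.94 and 0.56. In STAT6 loss 1 was higher and 2 lower of 14, beside 26.5% of all genes called. They were Ctsl (2.07), Tgfb3 (−2.55) and the co-receptor gene Tgfbr3 (−2.44). Tgfb3 read 6.64 in Th2 wild type and 4.09 in STAT6-deficient cells. The lower value lies within the range of the bacterial controls, so the size of that difference is not secure. Between wild types 2 were higher and 4 lower in Th1 cells, beside 33.5% of all genes called. That balance turned to 5 higher and 2 lower after quantile normalization and 4 higher and 2 lower after loess. Between the knockouts 1 was called each way, beside 22.9% of all genes, and 3 higher and 1 lower after quantile normalization.

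Among the Ikaros family relatives of Helios and Eos, Aiolos had the same highest array as the brighter Eos probe sets. That array was the highest for 41.8% of all genes at the minimum on at least 1 array, so sharing it does not set Aiolos apart. Ikzf1, which encodes Ikaros itself, read 12.01 and 12.25 in wild type and STAT4-deficient Th1 cells and 12.36 and 12.74 in wild type and STAT6-deficient Th2 cells, with no call on this brightest probe set. Another Ikzf1 probe set differed by 1.50 between the wild types (Th1 minus Th2) and by 2.23 between the knockouts (STAT4-deficient minus STAT6-deficient), so Ikzf1 has no settled value there. Ikzf3, which encodes Aiolos, read 9.53, 9.51, 11.96 and 8.97 in that order. It was highest in Th2 wild type cells and differed by −2.99 without STAT6. Ikzf5 stayed between 7.85 and 8.12. Of the 8 family and partner genes at the minimum none was called in STAT4 loss, 1 was lower in STAT6 loss and 3 were higher in Th2 than in Th1 wild type cells, or 1 after quantile normalization. Of all genes 11.5%, 26.5% and 33.5% were called in these comparisons, in that order. Between the knockouts 1 was called each way, beside 22.9% of all genes.

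Among binding partners of the surface members, Itgb7, the integrin chain that pairs with CD103, read 11.15 in wild type and 11.35 in STAT4-deficient Th1 cells, and 12.37 in wild type and 11.43 in STAT6-deficient Th2 cells. It was thus close to equal between the Th1 arrays, where Itgae differed 3.34-fold. Cdh1, the ligand E-cadherin, stayed below the minimum on all arrays. The neuropilin ligand gene Sema4a was 1.64 log2 units higher in Th2 than Th1 wild type cells, a difference of −1.64 as coded, and the co-receptor gene Plxna1 was 1.57 higher in STAT4 loss. Of the 8 partner genes at the minimum 1 was higher in STAT4 loss, 3 were lower in STAT6 loss, and 5 were higher and 1 lower in Th2 than in Th1 wild type cells, with no call between the knockouts. The share of all genes called was 11.5% in STAT4 loss, 26.5% in STAT6 loss and 22.9% between the knockouts. It was highest between the wild types (33.5%). After quantile normalization 3 partner genes were higher and 1 lower in Th2 cells, after loess 2 and 1. Among 7 actin capping and severing genes related to Capg, none was called in STAT4 loss and 3 were lower in STAT6 loss, with Gsn (gelsolin) at 12.50 in Th2 wild type and 8.22 in STAT6-deficient cells. Between the wild types 4 of them were higher and 1 was lower in Th2 cells (2 and 1 after quantile normalization), and 1 was lower in STAT4-deficient than in STAT6-deficient cells. The shares of all genes just given stand beside these counts too.

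Markers of other cell types that express some members moved with part of these results. Of 10 measured myeloid and dendritic markers 4 were lower in STAT6 loss and 3 were higher in Th2 than in Th1 wild type cells, and their summed level (log2) was 12.09 in Th2 wild type cells against 10.51 to 10.81 on the other arrays. Adgre1 read 8.26 there and at most 5.92 elsewhere, Itgax 6.76 against 5.03 to 5.57, and Cst3 11.76 against 9.83 to 10.37. Cst3 was the brightest of these markers on every array and weighs most in the sum. Between the wild types Csf1r (−0.04), Fcgr3 (−0.04) and Cd68 (0.09) hardly differed, and Lyz2 was higher in Th1 cells (1.39). The median difference of the 8 markers at the minimum was −0.04. Macrophages are rich in Capg, which also peaked in Th2 wild type cells, and their part in the Capg, Gpr83 and Ikzf4 values was not tested. Cd14 and Itgam stayed below the minimum on all arrays. In STAT4 loss 1 of these markers, Cd68, was lower and none higher, and 1, Lyz2, was higher in Th1 wild type cells and between the knockouts. The CD8 markers, of which Cd8b1 read 8.54 in Th2 wild type and 6.47 to 7.41 elsewhere, summed to 7.40 without STAT4 and 7.91 in wild type Th1 cells. Their part in the Itgae values was not tested. Of them 1 was lower in STAT6 loss and higher in Th2 than in Th1 wild type cells. The 5 measured B cell markers stayed at or below 6.22 on their brightest probe sets, with no call there, while another Pax5 probe set was 2.08 higher in STAT4-deficient than in STAT6-deficient cells. Of the 4 platelet and 5 endothelial markers 1 each was lower in STAT6 loss and higher in STAT4-deficient than in STAT6-deficient cells, and Pf4, Ppbp, Cdh5, Tek and Vwf stayed below the minimum. Among T helper genes, 3 were higher and 3 lower of 7 in STAT4 loss and 3 higher and 2 lower of 8 in STAT6 loss, and of 9 between the wild types 3 were higher and 5 lower in Th1 cells. Between the knockouts 1 was higher and 4 were lower in STAT4-deficient cells. Beside these marker and T helper counts, 11.5% of all genes were called in STAT4 loss and 26.5% in STAT6 loss. Between the wild types 33.5% were called, and between the knockouts 22.9%.

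Genes with the most similar profiles were found by the root mean square distance between the 4 values, each gene centred on its own mean, among 13146 others. Over only 4 arrays such likeness describes the pattern and no more. Nearest to Foxp3 were Chrdl1 (0.16 log2 units), B4galt4 (0.16) and Pmfbp1 (0.20), which also had their highest signal in STAT4-deficient cells, and Itgae ranked 131. Nearest to Ikzf2 were Qtrt2 (0.052), Ppm1k (0.062) and Adamts3 (0.079), with Foxp3 at rank 9517. Tbc1d10b, Aspm and Nelfb were nearest to Ikzf4, and Maged1, Gsdma2 and Mrtfa to Itgae. Aida, Tab1 and Rbm19 were nearest to Nrp1, Armt1, Fam122b and Rad9a to Gpr83, and Psmc3, Haus7 and Tbc1d7 to Capg. Capg ranked 464 and Gpr83 ranked 899 in likeness to Ikzf4. No member was among the 3 nearest genes of another, which among 13146 others says little about shared patterns.

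**Figure D5:**
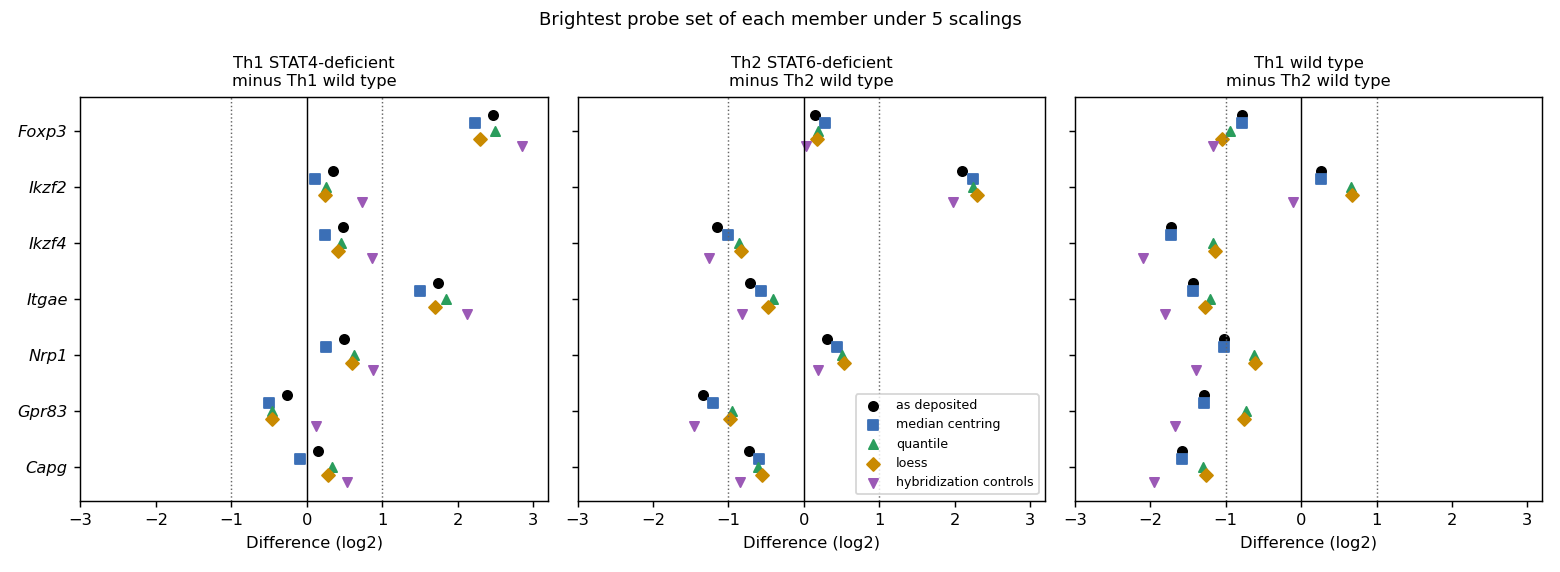
Difference (log2) of the brightest probe set of each member as deposited and under 4 other scalings, in 3 comparisons, with dotted lines at 2-fold. Foxp3 in STAT4 loss (2.23 to 2.85) and Ikzf2 in STAT6 loss (1.98 to 2.29) stay beyond 2-fold under each scaling, while Gpr83 and Ikzf4 in STAT6 loss cross it.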

How the data were processed

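Total RNA of CD4+ T cells was measured on 4 arrays, 1 per group. The deposited log2 values were made by the authors with RMA, per the submitters' processing notes, which give no version and do not state if the arrays were processed jointly. Array medians ran from 5.63 to 6.01, and 95.7% to 96.4% of the values on an array were shared exactly with another probe set of that array.

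Of 45037 probe sets outside the controls, 34945 had 1 gene in the platform annotation, 932 several and 9160 none. RefSeq (GRCm38.p6) updated symbols for 34741. Each of 18193 genes was represented by its brightest probe set. Differences of at least 2-fold with the brighter array at 5.82 or more were called. No test or p-value was possible with 1 array per group, and the number of arrays limits the precision. Quantile and loess scaling used limma 3.58.1 in R 4.3.3. The calling rule was also run on simulated arrays with 200 changed genes. The outcome of that run is not given here and carries no weight for the member calls. The members, lists and rules were chosen with earlier results of these data known. Named genes were all members, up to 4 called genes per list with the largest difference, any T helper gene or marker, and the 3 nearest profiles. Listed genes named with a value under the limit, and Fgl2, Bach2, Nfatc1 and Foxo3, were chosen after their values were seen.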

Additional observations from a re-analysis of the deposited data

How the results depend on the processing

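Over 4 scalings and the mean of all probe sets of a gene, the 140 recomputed differences of member genes moved by less than the technical guide, and no called one changed sign. These are not separate checks. Median centring and hybridization control centring shift all genes of a comparison by 1 constant, and Foxp3 has 1 probe set to average. A move within the guide could still lose a call, as for Capg between wild types (−1.58 to −0.87 with the mean of probe sets). Counts of called members moved more. In STAT4 loss the 2 genes became 0 with the level minimum at the 75th percentile, since Foxp3 and Itgae are dim, and the 3 probe sets became 1 there and 6 under centring by the hybridization controls. In STAT6 loss the 3 genes became 1 after quantile normalization, after loess and at 3-fold, which leaves Ikzf2, and the 6 probe sets became 3 at 3-fold. Between wild types the 5 genes became 3 after quantile normalization or loess and 1 at 3-fold, and the 9 probe sets became 4 at 3-fold. Between the knockouts the 3 genes became 1 with the higher minimum and 0 at 3-fold, and the 7 probe sets became 3 and 2. The split of genes there, 2 higher and 1 lower, turned to 1 higher and 3 lower after median centring, with Nrp1 (−1.21) and Capg (−1.08) called lower, and to 1 higher and 2 lower with the mean of probe sets. The cause of the changes between scalings was not tested. Scaling also moved the whole arrays. The median over all genes in STAT4 loss was 0.17 as deposited, −0.07 after median centring and 0.55 with the hybridization controls, and the share of called genes that were higher went from 53.7% to 24.8% and 87.5%. In STAT6 loss this share was 26.5% as deposited and 43.4% after quantile normalization, and between wild types 24.3%, with 44.9% and 8.89% under quantile and hybridization control scaling. Between the knockouts it was 55.1%, 18.8% after median centring and 68.4% with the hybridization controls. Without the STAT6-deficient array, whose actin control stood apart, neither its comparison nor that of the knockouts exists. No paired analysis was possible because each group has 1 array, and for the same reason no array could be left out in turn.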
